A study of Mus musculus with 61 samples.

Results

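The genes described here were the 8 best known members of the Nodal signalling pathway in the early mouse embryo, Nodal, Tdgf1, Lefty1, Lefty2, Gdf3, Gdf1, Cer1 and Foxh1, out of 55052 genes listed in the expression table. They were chosen by symbol, one row each, and their transcript levels were followed through all 61 libraries of the series. RNA was sequenced from stembryos, aggregates of mouse embryonic stem (mES) cells that elongate and form tissues of the posterior body after a pulse of the Wnt agonist Chiron between 48 h and 72 h of culture. The study asked how the Hoxd genes are switched on in sequence and what CTCF binding sites (CBSs), where chromatin loops are anchored, contribute to that order. Wild-type (wt) stembryos were sampled every 12 h from 72 h to 144 h and again at 168 h, with 2 libraries per stage. Separate wt libraries (4 at 96 h, 4 at 120 h and 2 at 144 h) accompanied the mutants, which had 2 libraries per stage except Del(sub-TAD1) at 96 h, with 3.

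Every mutant was homozygous and altered the HoxD locus, none of them touching a Nodal pathway gene. Del(CBS1), Del(CBS2) and Del(CBS1-2) lacked 1 or 2 CBSs, the last having been made in Del(CBS1) cells, and all 3 were profiled at 96 h and 120 h. Del(CBS4) lacked a single CBS and was profiled at 120 h and 144 h. In Del(CBS1-5), profiled at all of these stages, CBS1 to CBS5 were lost together. Del(d1-d4) lacked the genes Hoxd1 to Hoxd4, Del(sub-TAD1) lacked a regulatory domain flanking the cluster, and Ins(2xCBS-d4d8) carried 2 extra CBSs, all 3 being profiled at 96 h and 120 h. The mES cells of Del(sub-TAD1) and of Del(CBS1-5) were derived from blastocysts of mutant mice of mixed BL6 and CBA background, the former also carrying an Mtx2 fosmid transgene, whereas the wt cells were 129/SVEV cells and the other mutants were made from these. In those 2 lines the mutation and the genetic background therefore cannot be told apart. A library pooled several stembryos, and from 108 h on only those that were elongating were collected. The study describes its replicates as biological, but the labels do not say whether they came from separate cultures, so p-values measure only the spread between these libraries.

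Nodal is a secreted ligand of the TGF-beta family that acts through activin receptors and the transducers Smad2, Smad3 and Smad4. Its signal requires an EGF-CFC co-receptor and reaches many of its target genes through the DNA-binding protein Foxh1, and it is held in check by antagonists that it induces itself. In the epiblast Nodal maintains the undifferentiated state and then drives formation of the primitive streak, the mesoderm and the endoderm.

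Among the 8 genes, Nodal (chr10:61417972-61425338, plus strand), Gdf3 (chr6:122605403-122610087, minus strand) and Gdf1 (chr8:70329817-70331587, plus strand) encode ligands. Tdgf1 (chr9:110939603-110946158, minus strand), also called Cripto, encodes the co-receptor. Lefty1 (chr1:180935022-180938400) and Lefty2 (chr1:180893108-180899103), neighbours on the plus strand, and Cer1 (chr4:82881751-82885148, minus strand) encode secreted antagonists. Foxh1 (chr15:76668225-76669948, minus strand) encodes the DNA-binding partner of the Smad proteins. All coordinates span the whole gene in the mm10 build, as listed in the expression table.

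The RefSeq promoter set (GRCm38.p6) matched 4 of the 8 genes. Of these, the 250 bases before the start are shown for Nodal and Tdgf1, whose levels moved together, and for Cer1, whose level followed another course. The windows are chr10:61417722-61417971 (plus strand) for Nodal, chr9:110946159-110946408 (minus strand) for Tdgf1 and chr4:82885152-82885401 (minus strand) for Cer1, and capitals mark the Smad motif CAGAC and the Klf motif CCACGCCC wherever it occurs on either strand, the latter having been chosen after the sequences were seen:
Nodal: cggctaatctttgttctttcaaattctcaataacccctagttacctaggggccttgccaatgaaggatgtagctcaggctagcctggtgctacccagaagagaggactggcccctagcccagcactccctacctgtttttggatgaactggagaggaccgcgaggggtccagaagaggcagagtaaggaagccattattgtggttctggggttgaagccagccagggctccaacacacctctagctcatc
Tdgf1: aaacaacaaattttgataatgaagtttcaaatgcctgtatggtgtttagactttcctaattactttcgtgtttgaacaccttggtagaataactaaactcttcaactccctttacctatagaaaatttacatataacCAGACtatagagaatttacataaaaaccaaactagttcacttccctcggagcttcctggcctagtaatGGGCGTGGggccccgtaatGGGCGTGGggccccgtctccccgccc
Cer1: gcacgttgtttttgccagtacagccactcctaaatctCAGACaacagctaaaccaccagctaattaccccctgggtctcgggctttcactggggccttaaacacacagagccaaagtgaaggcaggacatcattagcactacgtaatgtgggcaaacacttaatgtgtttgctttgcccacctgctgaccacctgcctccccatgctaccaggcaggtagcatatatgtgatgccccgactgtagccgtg

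CAGAC occurred once in the Cer1 window, 213 bases before the start, once in the Tdgf1 window, 113 bases before the start, and not in the Nodal window. Of all 32851 promoter windows of that length, 42.19% held it on one strand or the other. The Klf motif occurred on the reverse strand of the Tdgf1 window, 45 and 26 bases before the start, and 4.794% of all windows held it. None of the 3 windows held the Foxh1 motifs AATCCACA or AATACACA (1.607% of windows), the octamer ATGCAAAT (1.601%), the LEF/TCF motifs CTTTGAT or CTTTGAA (7.479%) or the T-box motif AGGTGTGA (1.12%), all searched on both strands. These matches describe letters only, in short windows that leave out more distant elements.

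The levels are FPKM, fragments scaled to transcript length and to library size, from libraries of 14.7 to 38.2 M fragments (median 23.6 M). Differences were tested with limma on log2(FPKM + 0.1) over the 17098 genes that reached a mean of 1 FPKM in at least 1 condition, an adjusted p under 0.05 counting as a call. The libraries fell into 2 sets of 28 and 33, with mt-Co3 at 995 to 1718 FPKM in the first and at 0.338 to 2.76 FPKM in the second. Controls came from both sets, since wt replicates 1 to 3 at 96 h and 120 h were in the first and wt replicate 4, both wt libraries at 144 h and the whole time course in the second. Of the mutants, Del(CBS4), Ins(2xCBS-d4d8), Del(sub-TAD1) at 96 h and Del(CBS1-5) at 144 h were in the second set and the others in the first. At 96 h and 120 h most controls of the former were therefore of the other set. In the shares of all tested genes called there, mutation and set cannot be told apart. In addition, wt replicate 3 stood apart from the other wt libraries at both 96 h and 120 h for most of the genes described here. Values with controls of the same set, or without wt replicate 3, are therefore given with the main mutant results. Hoxd1, Hoxd3 and Hoxd4, which Del(d1-d4) removes, were each listed at 0 in its 4 libraries and at 4.59 FPKM or more in the 8 wt libraries of those stages. Presomitic mesoderm markers (Tbx6, Msgn1, Hes7, Dll1 and Rspo3) summed to 514 to 673 FPKM in wt libraries at 96 h. Spinal cord markers (Sox1, Pax6, Irx3, Olig2 and Neurog2) summed to 0.57 and 2.34 FPKM in the 72 h libraries and to 124 and 137 FPKM in those of 168 h, so the tissues for which stembryos are known were present.

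Gdf1 could not be measured. It was listed at 0 in all 61 libraries, as was Cers1, the gene that it overlaps on the same strand and with which it shared every 75-base stretch of its transcript. Results therefore concern 7 genes. Nodal, Cer1 and Foxh1 were above 3 fragments, the limit of detection used here, in every library. Tdgf1 was at or under 3 fragments in 12 libraries, Gdf3 in 8, Lefty2 in 4 and Lefty1 in 3, and no fold is given where such libraries enter. This limit covers counting error only. Lefty1 shared 11.71% of its 75-base stretches with Lefty2, and Tdgf1 shared 5.985% with a pseudogene, Tdgf1-ps1. In bulk libraries, fewer cells of a type and less RNA per cell cannot be told apart.

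In the wt time course the ligand Nodal and its co-receptor were highest in the 72 h stembryos, at the end of the Chiron pulse, and had dropped by 84 h. Nodal measured 67.3 and 44.4 FPKM at 72 h, 7.18 and 12.6 FPKM at 84 h, 1.80 and 4.97 FPKM at 96 h and 1.10 and 1.37 FPKM at 108 h. From 120 h to 144 h it lay between 1.35 and 2.87 FPKM, and at 168 h it was lowest, at 0.845 and 0.62 FPKM. Both libraries at each stage from 72 h to 108 h lay below both of the stage before, but only the first step passed the test (Nodal mean 5.64-fold lower at 84 h than at 72 h, log2 change -2.51, SE 0.70, limma adjusted p = 0.0102). The step from 84 h to 96 h did not (-1.63, limma adjusted p = 0.101). With the replicate number added as a block it passed (limma adjusted p = 0.00578), as did the fall from 144 h to 168 h (-1.72, 0.00678). Few deviations correlated by replicate number in the time course.

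Tdgf1 measured 167 and 50.1 FPKM at 72 h, 9.55 and 15.6 FPKM at 84 h and 1.47 and 7.63 FPKM at 96 h. From 108 h to 168 h it lay between 0.893 and 3.36 FPKM. As for Nodal, the libraries at 84 h were both below those at 72 h (8.66-fold lower, log2 change -2.90, SE 0.93, limma adjusted p = 0.0263), although the 72 h libraries themselves differed widely. These 2 calls, 0 higher and 2 lower of 7, compare with 16.3% of all tested genes called at that step. Neither call was kept when 1 time-course replicate was left out, which leaves 1 library per stage.

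The Lefty antagonists, which Nodal signalling is known to induce, also had their highest means at 72 h, and no step passed the main test. For Lefty2 the means at 72 h and 84 h were close, 21.2 and 19.3 FPKM, and the 72 h libraries enclosed those of 84 h. Lefty1 measured 65.5 and 29.7 FPKM at 72 h, 15.8 and 23.1 FPKM at 84 h and 4.87 and 3.60 FPKM at 96 h, and lay between 0.934 and 5.18 FPKM afterwards. Lefty2 measured 31.9 and 10.5 FPKM at 72 h, 17.4 and 21.2 FPKM at 84 h, 2.95 and 10.7 FPKM at 96 h and 1.48 FPKM in both libraries at 108 h. From 84 h to 96 h both libraries of each Lefty gene went down without passing (limma adjusted p = 0.206 and 0.204), on the spread pooled over all conditions. With the replicate block Lefty1 passed at this step (limma adjusted p = 0.0135). At 168 h Lefty1 measured 5.18 and 3.64 FPKM against 0.707 and 0.659 FPKM for Lefty2. In the 72 h libraries the ratio of Lefty1 to Lefty2 was 2.06 and 2.83, in those of 84 h 0.908 and 1.09, in those of 96 h 1.65 and 0.338, and in those of 168 h 7.33 and 5.52. Lefty1 was 0.974 and 0.669 times the level of Nodal at 72 h and 6.13 and 5.87 times at 168 h.

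Cer1, the antagonist made by anterior endoderm and by nascent mesoderm, followed a different course, being nearly silent until 84 h and abundant at 96 h. Cer1 measured 2.40 and 0.251 FPKM at 72 h, 0.666 and 1.24 FPKM at 84 h, 66.1 and 187 FPKM at 96 h and 93.4 and 74.9 FPKM at 108 h. At later stages it measured 12.4 and 16.4 FPKM at 120 h, 11.4 and 11.9 FPKM at 132 h and 2.86 and 3.80 FPKM at 144 h and 0.671 and 0.173 FPKM at 168 h. The rise from 84 h to 96 h was 133-fold between means (log2 change 6.78, SE 1.07, limma adjusted p = 9.98e-06) and was the only one of the 7 genes called at that step, against 20.7% of all tested genes. It was kept without either time-course replicate. None of the later declines passed (120 h against 108 h, log2 change -2.54, limma adjusted p = 0.166). The Cer1 mean was highest, at 127 FPKM, at a stage where Nodal was at 4.97 FPKM or less.

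Foxh1 was abundant until 96 h and was then switched down in steps. It measured 104 and 86.2 FPKM at 72 h, 133 and 135 FPKM at 84 h and 61 and 162 FPKM at 96 h. It fell to 18.9 and 18.6 FPKM at 108 h (5.94-fold lower, log2 change -2.40, SE 0.33, limma adjusted p = 6.14e-06) and to 8.65 and 4.03 FPKM at 120 h (2.96-fold lower, log2 change -1.65, SE 0.33, limma adjusted p = 0.00144). It was the only one of the 7 genes called at either step, against 9.45% and 7.06% of all tested genes. From 132 h to 168 h the libraries lay between 2.10 and 3.54 FPKM. Without time-course replicate 2 the second of these calls was lost. Gdf3, the ligand expressed in pluripotent cells, stayed low throughout, between 0.194 and 0.976 FPKM, with no step called. Without the replicate block, no gene was called from 120 h on, at steps where 2.46%, 5.42% and 9.87% of all tested genes were.

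**Figure D1:**
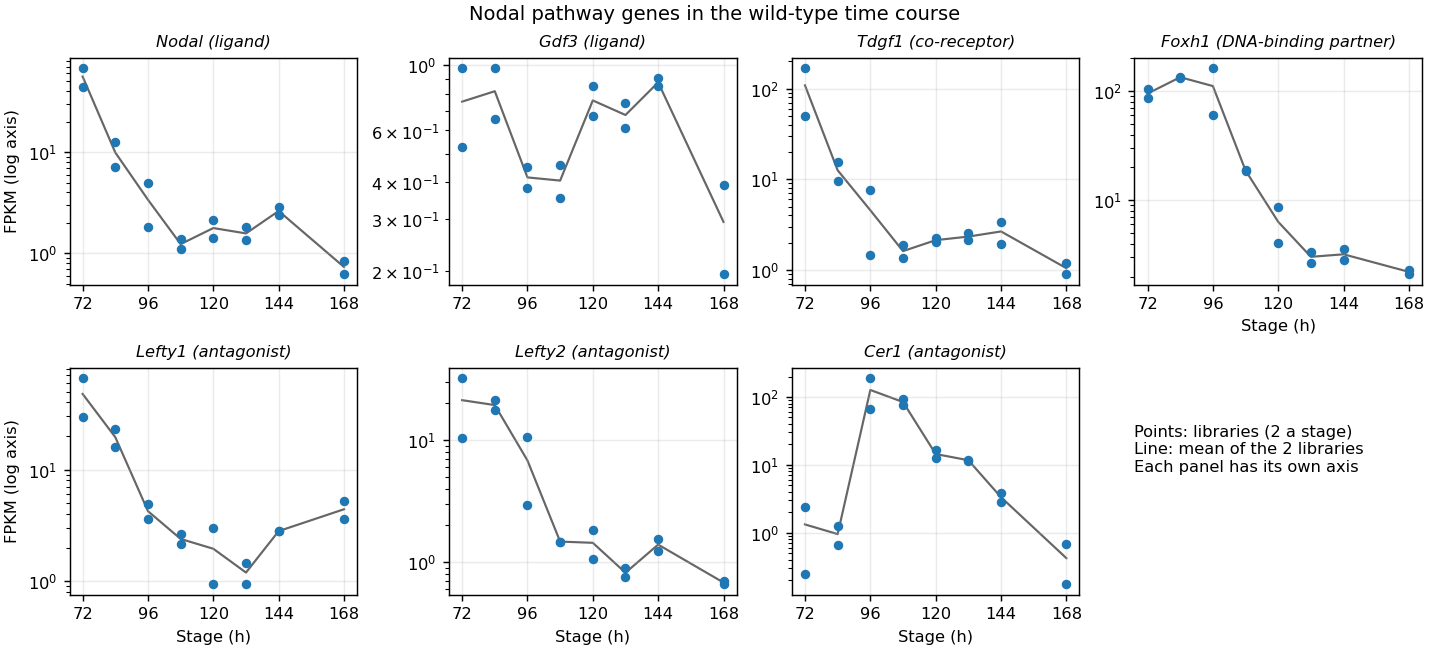
FPKM on a log axis in the 2 libraries of each time-course stage (points, with lines through the means) for the 7 measured genes, against hours of culture. By their means, Nodal, Tdgf1 and both Lefty genes are highest at 72 h, Foxh1 at 84 h and Cer1 at 96 h (127 FPKM), while Gdf3 stays under 1 FPKM. For Lefty2 the libraries of 72 h and 84 h overlap.

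The remaining pathway genes were read from a list of 30, of which 27 passed the expression filter (Inhba, Inhbb and Acvr1c did not). From 72 h to 84 h, 7 rose and 7 fell (median log2 change 0.03), where 10.4% of all tested genes were called higher and 5.97% lower. Genes listed as responsive to Nodal signalling were among those that fell, with Eomes at a mean of 2.25 FPKM against 50.2 FPKM (log2 change -4.16), Gsc at 1.15 against 21.7 FPKM (-3.71) and Otx2 (-2.98). Pmepa1, a TGF-beta target that limits Smad activity, fell from 11.8 to 2.03 FPKM (-2.42). Among the risers was Gdf11, a ligand of the same family active in axial elongation, at 7.14 against 1.43 FPKM (2.38).

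From 84 h to 96 h, 2 of the 27 rose and 9 fell (median log2 change -0.40, against -0.01 over all tested genes). At that step 8.16% of all tested genes were called higher and 12.5% lower. Mixl1, a regulator of mesendoderm (-3.60), Fst, a secreted activin antagonist (-3.20, 29.1 against 238 FPKM), T, the transcription factor Brachyury (-2.18), and Pmepa1 (-2.08) were lower. Among 6 rises and 3 falls at 108 h, where 9.45% of all tested genes were called, Gdf11 was higher (1.40). Cfc1, the second EGF-CFC co-receptor, was lower (-3.88), and so was Eomes (-2.96). One of the 2 libraries at 96 h carried both decreases, with Cfc1 at 7.82 against 0.453 FPKM and Eomes at 8.36 against 0.155 FPKM in the other. The core of the pathway was measured at every stage. Mean levels of the type I receptor Acvr1b lay between 9.89 and 13.6 FPKM, of Smad2 between 25.4 and 33.0 FPKM and of Smad4 between 48.0 and 70.5 FPKM.

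Outside the time course, Nodal and its co-receptor were low in most wt libraries of 96 h and 120 h, with 1 replicate far above the rest. Nodal measured 1.15, 0.992, 9.07 and 2.80 FPKM in wt replicates 1 to 4 at 96 h and 0.543, 0.382, 5.02 and 1.17 FPKM at 120 h. Tdgf1 measured 0.65, 0.645, 11.6 and 2.05 FPKM at 96 h and 1.41, 1.22, 16.9 and 2.92 FPKM at 120 h. Replicate 3 was the highest library at both stages for both genes, and also for Lefty1, Lefty2 and Gdf3.

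Lefty1 measured 1.36, 1.76, 60.2 and 6.99 FPKM at 96 h and 0.992, 0.535, 23.9 and 3.06 FPKM at 120 h. Lefty2 measured 1.19, 1.54, 21.5 and 3.95 FPKM at 96 h and 0.518, 0.569, 8.81 and 1.62 FPKM at 120 h, and Gdf3 measured 0.185, 0.104, 3.16 and 0.747 FPKM and then 0.385, 0.397, 2.50 and 0.554 FPKM. For Cer1 at 96 h replicate 3 was instead the lowest, with 66.7, 63.8, 9.85 and 109 FPKM in replicates 1 to 4. At 120 h Cer1 was even across libraries, at 16.2, 15.0, 13.8 and 9.01 FPKM.

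Foxh1 measured 58.4, 52.2, 36.6 and 50.9 FPKM at 96 h and 2.85, 1.97, 6.08 and 2.27 FPKM at 120 h, with no overlap between the stages. It was the only one of the 7 genes called between them (15-fold lower at 120 h, log2 change -3.99, SE 0.24, limma adjusted p = 1.05e-15), where 27.1% of all tested genes were called. Libraries of the same replicate number deviated alike at both stages, but replicate 4 was of the other set at both. Shared culture and shared set cannot be told apart there. With the replicate number as a block the count was 0 higher and 4 lower. The block added Nodal (-1.04, limma adjusted p = 0.0098 with the block and 0.125 without), Lefty2 (-1.22, 0.0176 against 0.186) and Cer1 (-1.80, 0.0385 against 0.076). Nodal and Cer1 were also called without wt replicate 3. Of the pathway list, 7 rose and 5 fell.

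At 144 h the 2 sources of wt stembryos differed. Nodal measured 2.87 and 2.37 FPKM in the time course against 0.122 and 0.168 FPKM in the other wt libraries, an 18-fold difference of means (log2 difference 3.47, SE 0.70, limma adjusted p = 0.000401). Foxh1 measured 2.86 and 3.54 FPKM against 1.05 and 0.85 FPKM (3.37-fold, 1.65, limma adjusted p = 0.000408). Tdgf1 was at 3.36 and 1.95 FPKM against a level at or under 3 fragments (limma adjusted p = 0.0192). Lefty2 (3.35, limma adjusted p = 0.00766) and Gdf3 (2.22, 0.0342) were higher too, 5 of 7 in all where 21.5% of tested genes were called. At 96 h and 120 h only Foxh1 was called, at log2 differences of 1.02 and 0.97, against 32.3% and 30.1% of tested genes. The age at which each library best matched the time course over 1000 other genes was 157 h for both wt libraries labelled 144 h, against 92 to 100 h at 96 h and 125 to 126 h at 120 h.

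**Figure D2:**
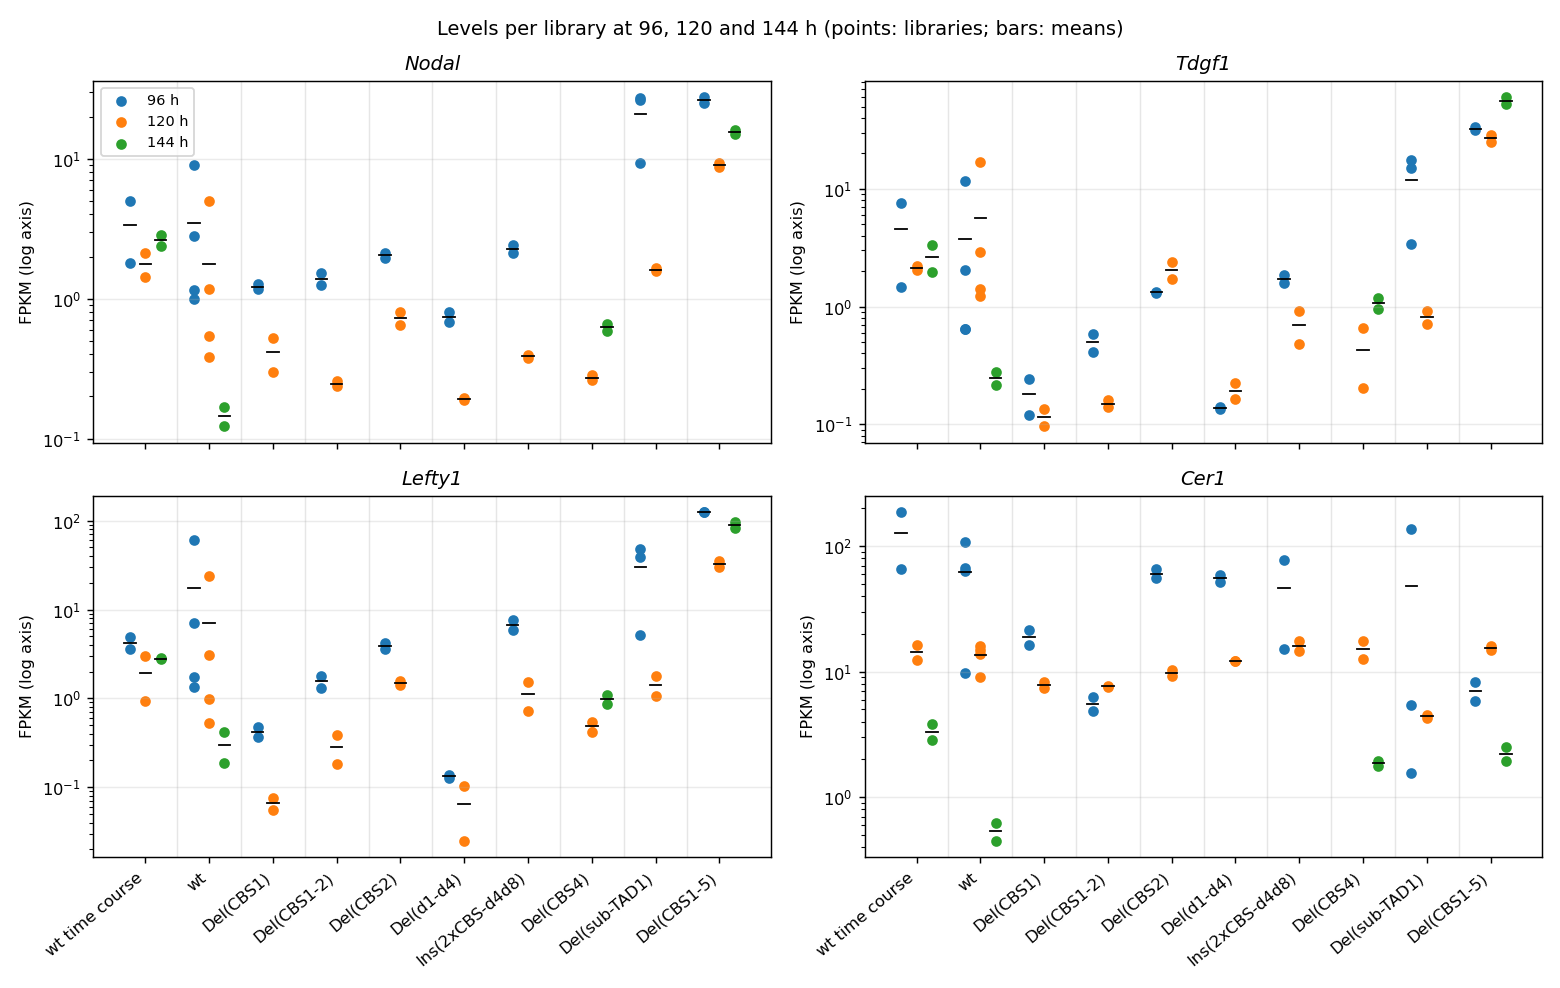
FPKM on a log axis of Nodal, Tdgf1, Lefty1 and Cer1 in every library of the 3 stages shared with the mutants (points, coloured by stage, with bars at the means), arranged by genotype. For Nodal, Tdgf1 and Lefty1 1 wt library stands above the others at 96 h and at 120 h, and the Del(CBS1-5) libraries lie above all wt libraries of their stage.

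In what follows, mutants are set against the wt libraries outside the time course. Where a gene lies above or below all of these without passing the test, this describes its values only. How many of all tested genes do so was not counted. The mutant with the highest levels of Nodal pathway transcripts was Del(CBS1-5), in which the ligand, the co-receptor and both Lefty genes were several-fold above wt at all 3 stages. Nodal measured 24.9 and 27.4 FPKM at 96 h, 8.79 and 9.29 FPKM at 120 h and 14.9 and 16.0 FPKM at 144 h, every library being above every wt library of its stage. At 96 h the mean was 7.48-fold higher than wt (log2 change 3.42, SE 0.61, limma adjusted p = 0.000181), at 120 h 5.08-fold (2.94, SE 0.61, limma adjusted p = 0.00138) and at 144 h 107-fold (6.0, SE 0.70, limma adjusted p = 3.89e-08). The 2 wt libraries behind the last fold best matched 157 h and averaged 0.145 FPKM of Nodal, against 2.62 FPKM in the time course at 144 h. All 144 h folds of this mutant rest on these 2 libraries, and against the time course they would be smaller for Nodal. In all, 5 of the 7 genes were called higher and 1 lower at 96 h, 6 higher at 120 h and 6 higher at 144 h, where 14.8%, 13.3% and 23.7% of all tested genes were called in either direction. The median log2 change of the 7 was 3.42, 2.94 and 6.10, against 0.04, 0.01 and 0.03 over all tested genes.

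Tdgf1 measured 33.3 and 31.7 FPKM in Del(CBS1-5) at 96 h (8.72-fold higher, log2 change 4.07, limma adjusted p = 0.00058), 25 and 28.7 FPKM at 120 h (4.78-fold, 3.08, limma adjusted p = 0.00946) and 59.7 and 52.3 FPKM at 144 h (7.34, limma adjusted p = 1.65e-07). At 144 h both wt libraries were at or under 3 fragments. Unlike Nodal, which was highest at 96 h, the co-receptor was highest at 144 h in this mutant. Gdf3 was higher as well, at 5.86 and 6.55 FPKM, 4.34 and 5.58 FPKM and then 14.2 and 14.3 FPKM (5.91-fold, 5.17-fold and 131-fold above wt, with limma adjusted p = 0.000709, 0.00719 and 1.54e-07). The 144 h levels of Gdf3 were the highest of any library in the series.

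Lefty1 reached 125 FPKM in both Del(CBS1-5) libraries at 96 h (7.12-fold, log2 change 4.42, limma adjusted p = 0.00217), above the 65.5 FPKM of the higher library of the 72 h wt stembryos. It measured 29.99 and 34.9 FPKM at 120 h (4.55-fold, limma adjusted p = 0.0141) and 82.2 and 97.5 FPKM at 144 h (298-fold, limma adjusted p = 2.23e-06). The wt mean of Lefty1 at 144 h was 0.302 FPKM in these controls, against 2.81 FPKM in the time course. Lefty2 measured 79.3 and 85.3 FPKM at 96 h (11.7-fold, limma adjusted p = 0.000195), 13.6 and 14.8 FPKM at 120 h (4.94-fold, limma adjusted p = 0.00757) and 24.3 and 23.9 FPKM at 144 h (log2 change 7.38, limma adjusted p = 1.49e-07). On the FPKM scale Lefty1 was 5.00 and 4.57 times the level of Nodal at 96 h and 5.51 and 6.08 times at 144 h.

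Cer1 again ran the other way at 96 h, at 5.79 and 8.34 FPKM in Del(CBS1-5), below all 4 wt libraries (8.81-fold lower, log2 change -2.72, SE 0.93, limma adjusted p = 0.0433). At 120 h it measured 15.0 and 16.1 FPKM, within the wt range, and at 144 h 1.95 and 2.50 FPKM, above both wt libraries without passing the test (1.88, limma adjusted p = 0.234). Foxh1 measured 35.5 and 38.4 FPKM at 96 h, overlapping the lowest wt library, and was higher at 120 h, at 8.64 and 9.83 FPKM (2.80-fold, log2 change 1.60, SE 0.29, limma adjusted p = 0.000373), and at 144 h, at 22.8 and 21.5 FPKM (23.4-fold, 4.41, limma adjusted p = 2.29e-12).

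With same-set controls the counts were 5 higher and 0 lower at 96 h, the decrease of Cer1 no longer passing (-2.31, limma adjusted p = 0.14), 6 higher at 120 h and 6 higher at 144 h. At 144 h these controls include the 2 time-course libraries, and the log2 changes were smaller, 4.26 for Nodal, 5.87 for Tdgf1 and 3.59 for Foxh1. When wt replicate 3 was also left out at 96 h, Nodal was higher by 4.49 and Lefty1 by 6.25 on the log2 scale. Since that library raises the wt means, the ratios of means without it were larger, at 15.9-fold for Nodal, 29.2-fold for Tdgf1, 37.1-fold for Lefty1 and 37.0-fold for Lefty2 at 96 h. At 120 h they were 12.9-fold for Nodal, 14.5-fold for Tdgf1, 21.2-fold for Lefty1, 15.7-fold for Lefty2 and 11.1-fold for Gdf3. With a single Del(CBS1-5) library the calls at 96 h and 120 h were lost (0 of 7), whereas the 6 at 144 h were kept.

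Of the 27 other pathway genes, 10 were higher and 0 lower in Del(CBS1-5) at 96 h (median log2 change 0.33). Over all tested genes 8.45% were called higher and 6.38% lower. Eomes was at 1.67 against 0.308 FPKM (2.40), Gsc (1.93) and Mixl1 at 10.2 against 3.19 FPKM (1.79). Inhibitors of Smad signalling were higher as well, Pmepa1 by 2.17 (1.14 against 0.25 FPKM), Smad7 by 1.35 (3.45 against 1.45 FPKM) and Skil by 0.63 on the log2 scale. The convertases Pcsk6 and Furin, which cleave the Nodal precursor, were higher by 1.04 and 0.33.

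At 120 h, 6 were higher and 3 lower (median 0.22), against 6.42% and 6.88% of all tested genes. Eomes (2.28), Otx2 (2.00), Gsc (1.86) and Fst, at 32.0 against 15.3 FPKM (1.14), were higher, and the ligand gene Gdf11 (-0.83) and the receptor genes Acvr2a (-0.54) and Acvr1b (-0.28) lower. At 144 h, 8 were higher and 6 lower (median 0.18), against 15.5% and 8.18% of all tested genes. Otx2, a marker of epiblast and anterior tissues, was at 9.02 against 0.112 FPKM (5.45), Eomes was higher by 2.86, and Skil was at 20.3 against 7.99 FPKM (1.34). The receptor genes Acvr2a (-0.93) and Acvr2b (-0.40) and the transducers Smad3 (-0.57) and Smad4 (-0.34) were lower.

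In Del(sub-TAD1) at 96 h replicate 1 stood apart from replicates 2 and 3, which were close to each other. Nodal measured 9.31, 27.4 and 26.2 FPKM in replicates 1 to 3, all above the 4 wt libraries (5.99-fold, log2 change 2.95, SE 0.54, limma adjusted p = 0.000112, and 12.7-fold without wt replicate 3). Tdgf1 measured 3.39, 15.0 and 17.4 FPKM (2.33, limma adjusted p = 0.00866). Replicate 1 overlapped the wt libraries for the co-receptor and for the genes that follow, which replicates 2 and 3 exceeded. Lefty2 measured 5.91, 38.9 and 46.1 FPKM (2.59, limma adjusted p = 0.00395). Gdf3 measured 0.77, 4.28 and 4.95 FPKM (2.08, limma adjusted p = 0.00497).

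Lefty1 measured 5.19, 38.6 and 47.6 FPKM and was not called, wt replicate 3 alone being at 60.2 FPKM. Cer1 measured 137, 5.43 and 1.56 FPKM, the first library above these 4 wt libraries, though below the 187 FPKM of a time-course library at 96 h, and the other 2 below them (-2.10, limma adjusted p = 0.039). Foxh1 measured 75, 67.8 and 62.0 FPKM, all above the same 4 without passing the test (log2 change 0.48), against 61 and 162 FPKM in the time course. The calls, 4 higher and 1 lower of 7, stand beside 40% of all tested genes called in this comparison. Without replicate 1 they were 5 higher and 1 lower, with Nodal at 3.46, Lefty1 at 2.88 and Cer1 at -3.93 on the log2 scale. Without replicate 2 none was called, and without replicate 3 2 were, both higher.

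With controls of the same set, 2 genes were higher in Del(sub-TAD1) at 96 h, Nodal (2.64) and Gdf3 (2.14), and Cer1 was lower (-3.36). Of the pathway list 15 were higher and 2 lower (median 0.68), among them Cfc1 (2.65), Foxa2, an endoderm and node factor (2.41), Otx2 (2.28), Gsc (2.06), Pmepa1 (2.01) and the antagonist gene Dand5 (1.69). Over all tested genes in the main comparison 21.8% were called higher and 18.1% lower. Markers of definitive endoderm and of node and notochord had 5 genes each called higher beside them, with summed levels of 268 to 488 FPKM and 18.4 to 29.4 FPKM against 51.6 to 149 FPKM and 2.23 to 3.50 FPKM in wt. These calls used the main controls, most of them of the other set. Trh was the largest part of the endoderm sum in wt at 96 h, at a mean of 90.0 FPKM against 15.9 FPKM for Cldn6 and 2.10 FPKM for Sox17. The part of these tissues in the result was not tested. At 120 h none of the 7 genes was called in Del(sub-TAD1), against 6.15% of all tested genes. Nodal was then at 1.58 and 1.65 FPKM, while Tdgf1 (-1.81), Gdf3 (-1.31), Lefty2 (-1.60) and Cer1 (-1.56) lay below all 4 wt libraries.

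**Figure D3:**
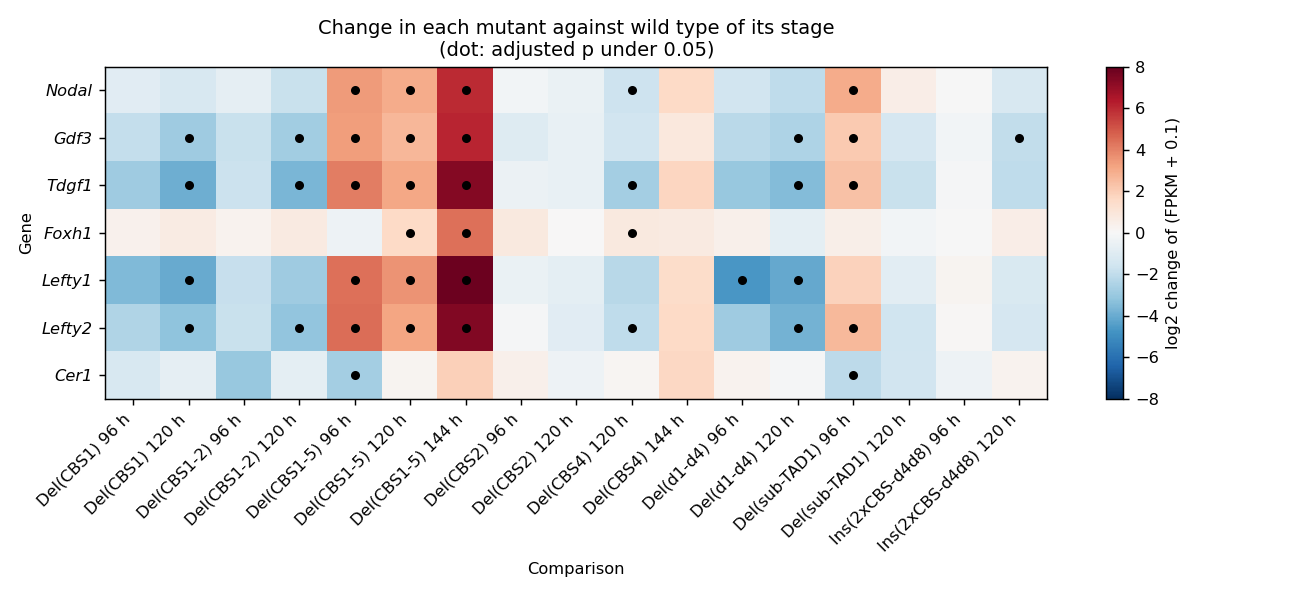
Log2 change against wt of the stage, of the 7 measured genes (rows) in the 17 comparisons of mutant and wt (columns), on a colour scale centred on 0, with dots on the cells past an adjusted p of 0.05. Del(CBS1-5) has 17 calls higher and 1 lower over its 3 stages, whereas the calls in Del(CBS1), Del(CBS1-2) and Del(d1-d4) are all lower.

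In Del(CBS1), Del(CBS1-2) and Del(d1-d4), by contrast, every call was lower than wt, with 4, 3 and 4 of the 7 genes called at 120 h and 0, 0 and 1 at 96 h. Nodal itself was called in none of them. In Del(CBS1) at 120 h, Tdgf1 measured 0.0958 and 0.134 FPKM (log2 change -3.89, SE 0.80, limma adjusted p = 0.00562), Lefty1 0.0762 and 0.0559 FPKM (-4.02, limma adjusted p = 0.0213), Lefty2 0.0675 and 0.0706 FPKM (-3.23, limma adjusted p = 0.022) and Gdf3 0 and 0.0208 FPKM (-2.86, limma adjusted p = 0.0136). All of these lay below every wt library, and most were at or under 3 fragments, where the size of a log2 change depends on the constant added. The 4 calls in Del(CBS1) compare with 2.1% of all tested genes. Nodal measured 0.299 and 0.527 FPKM there and overlapped wt. At 96 h none was called (1.23% of all tested genes), although Tdgf1, at 0.12 and 0.242 FPKM (-2.82, limma adjusted p = 0.069), Lefty1, at 0.365 and 0.471 FPKM (-3.50, 0.069), Lefty2 (-2.38, 0.145) and Gdf3 (-1.91, 0.162) again lay below all wt libraries. Foxh1 lay above them at 96 h (0.36), and Cer1 lay below them at 120 h (-0.74), neither passing.

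Del(CBS1-2), made in Del(CBS1) cells, had 3 of the 7 genes lower at 120 h, against 2.35% of all tested genes. Tdgf1 measured 0.159 and 0.14 FPKM (-3.67, limma adjusted p = 0.00982), Lefty2 0.0611 and 0.0998 FPKM (-3.15, limma adjusted p = 0.0313) and Gdf3 0.018 and 0.0181 FPKM (-2.76, limma adjusted p = 0.0213). Nodal, at 0.237 and 0.257 FPKM (-1.78, limma adjusted p = 0.103), Lefty1 (-2.86, limma adjusted p = 0.109) and Cer1 (-0.77, limma adjusted p = 0.629) lay below wt without passing. At 96 h no gene was called, where 4.49% of all tested genes were. Cer1, at 6.27 and 4.89 FPKM (-3.04, limma adjusted p = 0.052), Tdgf1, at 0.588 and 0.413 FPKM (-1.70, 0.23), and Gdf3 (-1.76, 0.122) lay below all wt libraries, and Foxh1, at 61.7 and 59.6 FPKM (0.31, 0.525), lay above them. In Del(CBS1), Cer1 measured 16.4 and 21.4 FPKM at 96 h.

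In Del(d1-d4) at 96 h Lefty1 was called lower, at 0.138 and 0.128 FPKM, 132-fold below the wt mean (log2 change -4.65, SE 0.99, limma adjusted p = 0.00883), 1 of 7 against 1.19% of all tested genes. That mean is raised by wt replicate 3, and without it the difference was 25.3-fold and the log2 change -3.52 (limma adjusted p = 0.0025). Tdgf1 (-3.03, limma adjusted p = 0.0505), Lefty2 (-2.86, 0.067) and Gdf3 (-2.14, 0.095) lay below all wt libraries at 96 h without passing, and Foxh1 lay above them (0.41). At 120 h 4 of 7 were lower, against 1.85% of all tested genes, namely Tdgf1 at 0.222 and 0.164 FPKM (-3.45, limma adjusted p = 0.016), Lefty1 at 0.103 and 0.0249 FPKM (-4.08, 0.0223), Lefty2 at 0.0162 and 0.0157 FPKM (-3.77, 0.00719) and Gdf3 at 0 and 0.111 FPKM (-2.46, 0.0438). Nodal measured 0.679 and 0.806 FPKM at 96 h (-1.55, limma adjusted p = 0.203) and 0.194 and 0.188 FPKM at 120 h (-2.04, 0.073), below all wt libraries at both stages. Foxh1 lay below wt at 120 h (-0.75, limma adjusted p = 0.197). Cer1, at 59.2 and 51.5 FPKM and then 12.1 and 12.2 FPKM, overlapped wt.

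The calls of these decreases depended on the constant added before taking logarithms and on which wt libraries served as controls. With 1 FPKM in place of 0.1 FPKM, none of the calls in these 3 mutants at 120 h or in Del(d1-d4) at 96 h was kept. With controls of the same set, which include wt replicate 3 and leave out replicate 4, 2 genes were lower in Del(CBS1) at 120 h (Tdgf1 -3.92 and Gdf3 -2.96) and none in Del(CBS1-2) or Del(d1-d4) at 120 h, with log2 changes near those above. With wt replicate 3 left out of that set as well, none was called in any of the 3 mutants, and Nodal in Del(CBS1) at 120 h differed by -0.15. Leaving out wt replicate 3 while keeping replicate 4, 4 genes were lower in Del(CBS1), 3 in Del(CBS1-2) and 4 in Del(d1-d4) at 120 h, and Foxh1 was called higher in Del(CBS1) (0.98) and Del(CBS1-2) (1.05). These comparisons share their wt libraries, so that one high wt library bears on all of them.

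The other mutants of the CBSs differed less from wt, or differed in libraries that many genes set apart. In Del(CBS2) no gene was called at 96 h (0.298% of all tested genes) or 120 h (0.193%), with Nodal at 2.12 and 1.96 FPKM and then 0.644 and 0.804 FPKM. Foxh1, at 85.8 and 82.5 FPKM at 96 h, lay above all 4 wt libraries (0.78, limma adjusted p = 0.2). Del(CBS4) at 120 h had Nodal at 0.261 and 0.285 FPKM, below all wt libraries (6.52-fold lower, -1.68, limma adjusted p = 0.0282), with Tdgf1 at 0.651 and 0.201 FPKM (-2.74, 0.00722) and Lefty2 at 0.296 and 0.266 FPKM (10.2-fold, -2.06, 0.041). Foxh1 was called higher at 5.40 and 4.91 FPKM although the groups overlapped (0.77, limma adjusted p = 0.0346), so that 1 was higher and 3 lower, in a comparison where 37.5% of all tested genes were called. These mutant libraries were in the second set and most of their controls in the first. Gdf3 lay below wt without passing (-1.55, limma adjusted p = 0.064). Without wt replicate 3 the ratios were 2.56-fold for Nodal and 3.21-fold for Lefty2, and only Tdgf1 was still called lower. With controls of the same set none was called. At 144 h no gene was called in Del(CBS4) (limma adjusted p from 0.303 to 0.775, 2.05% of all tested genes called), and the direction turned with the source of wt. All 7 genes lay above both wt libraries outside the time course, by 1.57 for Nodal, 1.75 for Tdgf1, 1.48 for Lefty1, 1.58 for Lefty2, 0.87 for Gdf3, 1.64 for Cer1 and 0.72 for Foxh1 on the log2 scale, and below both of the time course. With 2 libraries on each side a gene can separate in this way without a difference in level. The share of all tested genes that did so was not counted. Nodal measured 0.661 and 0.589 FPKM in the mutant, 0.122 and 0.168 FPKM in the former and 2.87 and 2.37 FPKM in the latter.

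In Ins(2xCBS-d4d8) no gene was called at 96 h, where 27.9% of all tested genes were, and Nodal measured 2.43 and 2.13 FPKM. Cer1 was uneven there, at 15.2 and 77.7 FPKM. At 120 h Gdf3 was lower, at 0.0913 and 0.124 FPKM (8.90-fold, log2 change -1.95, limma adjusted p = 0.0263), the only call of 7 against 26.9% of all tested genes, and Tdgf1, at 0.912 and 0.483 FPKM, lay below wt without passing (-2.05, limma adjusted p = 0.055). Without wt replicate 3 the ratio for Gdf3 was 4.13-fold (-1.38, limma adjusted p = 0.038), and with controls of the same set it was not called (limma adjusted p = 0.15). Of the 27 tested genes of the pathway list, 3 were higher and 1 lower at 96 h and 2 higher and 1 lower at 120 h. Both counts lie below the shares of all tested genes, 27.9% and 26.9%.

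**Figure D4:**
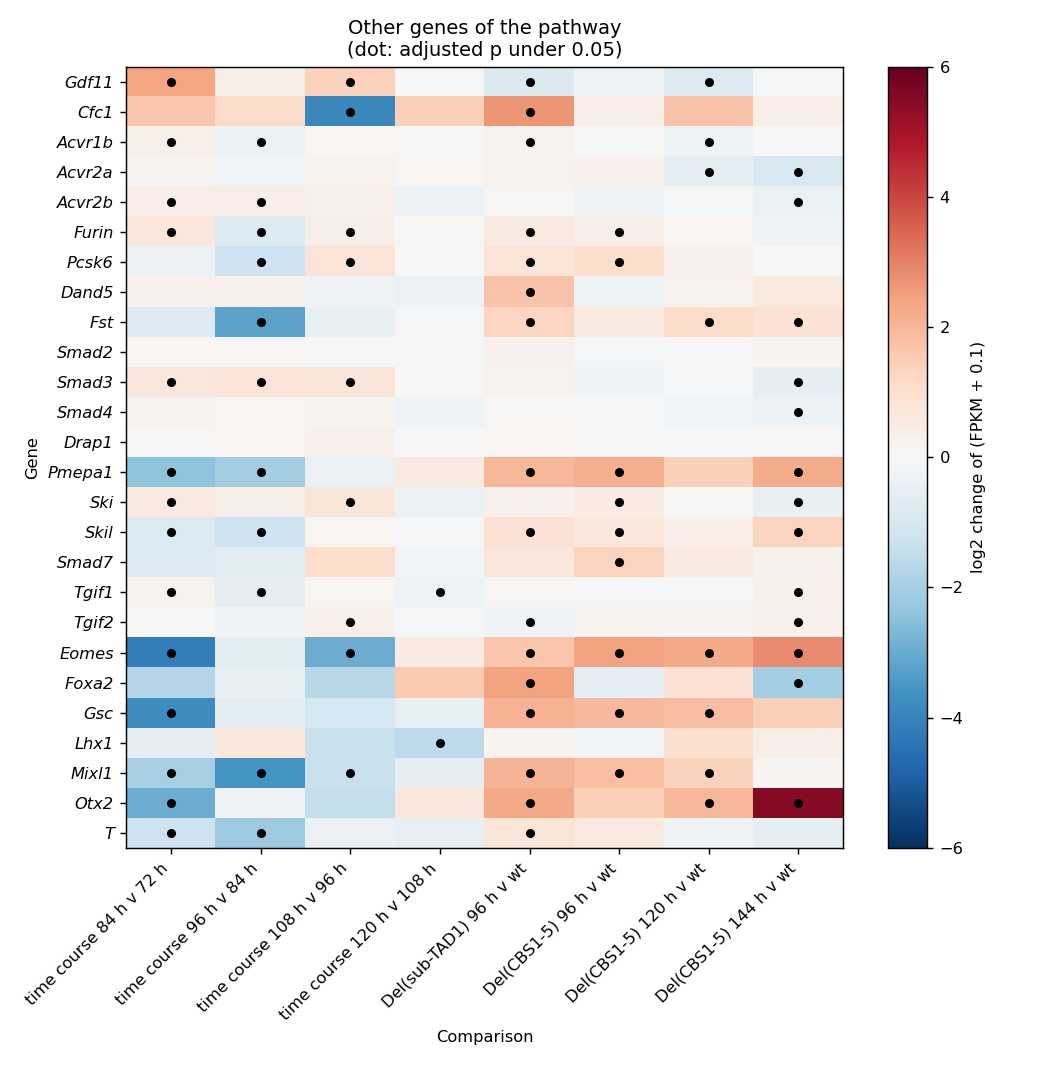
Log2 change of other pathway genes tested (rows) in the first 4 time-course steps, in Del(sub-TAD1) at 96 h and in Del(CBS1-5) at its 3 stages (columns), on a colour scale centred on 0, with dots on the cells past an adjusted p of 0.05. Eomes is called lower at 84 h against 72 h (-4.16) and higher in Del(CBS1-5) at all 3 stages (2.40, 2.28 and 2.86), and the strongest increase shown is that of Otx2 in Del(CBS1-5) at 144 h (5.45).

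Differences between stages in the effect of a mutation were tested directly. In Del(CBS1-5) the effect on Foxh1 was larger at 120 h than at 96 h by 2.00 on the log2 scale (limma adjusted p = 0.0215), the only one of 7 called where 0.257% of all tested genes were, and larger at 144 h than at 120 h by 2.82 (limma adjusted p = 5.42e-05). Between those later stages Nodal (3.06), Tdgf1 (4.26), Lefty2 (4.20) and Gdf3 (3.45) differed as well, 5 of 7 against 7.07% of all tested genes. The levels of Tdgf1 in the mutant were 25 and 28.7 FPKM and then 59.7 and 52.3 FPKM, whereas those in wt went from at least 1.22 FPKM to under 3 fragments, so that both arms enter the difference. The effect on Foxh1 (4.82) and Cer1 (4.59) also differed between 144 h and 96 h, 2 of 7 against 10.3% of all tested genes. In Del(CBS4) the effects on Nodal (3.25) and Tdgf1 (4.49) differed between 144 h and 120 h, 2 of 7 against 8.27% of all tested genes. In Del(sub-TAD1) the effect at 120 h was below that at 96 h for Nodal (-2.43), Tdgf1 (-4.14), Lefty2 (-4.19) and Gdf3 (-3.40), 4 of 7 against 23.6% of all tested genes. Most of these calls ended with other controls. With controls of the same set, only Foxh1 differed between 144 h and either earlier stage in Del(CBS1-5) (2.11 and 3.97), none differed in Del(CBS4), where Nodal was at 1.96 (limma adjusted p = 0.43), and only Gdf3 differed in Del(sub-TAD1) (-3.55). With all wt libraries of the stage as controls, again only Foxh1 differed in Del(CBS1-5) and none in Del(CBS4), while Gdf3, Tdgf1 and Lefty2 differed in Del(sub-TAD1). The Del(CBS1-5) libraries of 144 h belong to the other set than those of 96 h and 120 h, and likewise the Del(sub-TAD1) libraries of 96 h and 120 h, so that set and stage cannot be told apart there. None of the 7 was called between 120 h and 96 h in Del(CBS1) (0.0526% of all tested genes), Del(CBS1-2) (0.175%), Del(CBS2) (0.0117%), Del(d1-d4) (0.0234%) or Ins(2xCBS-d4d8) (0.392%).

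Across the 28 conditions, the genes whose mean log2 levels ran most closely with those of the 7 were described by Pearson's r, with no test. For Nodal they were Klf9 (0.97), Zyg11a (0.96) and Ephx2 (0.95), and for Tdgf1 L1td1 (0.98), Nanog (0.97) and Platr10 (0.97). For Gdf3 they were Hormad1 (0.98), Morc1 (0.97) and AU018091 (0.97). Nanog and L1td1 are genes of pluripotent cells. Lefty1 ran closest with Lefty2 (0.96), Nanog (0.95) and Tdgf1 (0.94), and Lefty2 with Lefty1 (0.96), Nodal (0.95) and Ephx2 (0.95).

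Cer1 ran closest with Ripply2 (0.94), Mesp2 (0.92) and Kcnn3 (0.92), the first 2 being genes of the anterior presomitic mesoderm, where somites are prepared. For Foxh1 they were Thy1 (0.96), Exoc6b (0.96) and Spry4 (0.96). Among the 7 themselves r was 0.92 for Nodal and Tdgf1, 0.91 for Nodal and Lefty1, 0.79 for Nodal and Gdf3 and 0.63 for Nodal and Foxh1, whereas r between Cer1 and the others ranged from -0.22 to 0.35. The conditions share cell lines, library sets and wt stages, so these values describe the series and no more.

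Markers of epiblast and pluripotency (Pou5f1, Nanog, Sox2, Utf1, Fgf5, Zfp42 and Esrrb, all 7 tested) moved with the pathway genes in several groups. Their summed level was 262 to 270 FPKM in Del(CBS1-5) at 96 h, 177 to 196 FPKM at 120 h and 329 to 339 FPKM at 144 h, against 37.5 to 131, 29.8 to 119 and 68.6 to 73.1 FPKM in wt, and 6, 4 and 6 of the 7 were called higher and 0 lower. Over all tested genes 8.45%, 6.42% and 15.5% were called higher. In Del(sub-TAD1) at 96 h 5 were higher, with sums from 75.7 to 224 FPKM, where 21.8% of all tested genes were called higher. At 120 h 4 were lower in Del(CBS1), 5 in Del(CBS1-2) and 4 in Del(d1-d4), with sums from 22.9 to 28.5 FPKM over the 3 mutants. Over all tested genes 0.807%, 1.3% and 1.53% were called lower there. In other groups their summed level did not. In Del(CBS4) at 120 h the sum was 87.3 to 113 FPKM, in the upper part of the wt range, with Nodal, Tdgf1 and Lefty2 called lower, and in the time course it was 35.1 to 36.8 FPKM at 108 h and 139 to 144 FPKM at 168 h, where Nodal was lowest. Sox2, which spinal cord also expresses, and Pou5f1 were the largest parts of the sum in wt at 120 h. Their means were 23.7 and 20.5 FPKM, against 4.50 FPKM for Nanog. The sum therefore does not show how Nanog moved in these groups. The part of these cells in the results on Nodal, Tdgf1, Lefty1, Lefty2 and Gdf3 was not tested.

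Among these markers, Nanog measured 29.5 and 29.8 FPKM in Del(CBS1-5) at 96 h, 20.1 and 22.1 FPKM at 120 h and 35.4 and 30.4 FPKM at 144 h. In wt replicates 1 to 4 it measured 1.33, 1.53, 11.9 and 3.24 FPKM at 96 h and 1.75, 1.51, 11.5 and 3.25 FPKM at 120 h, and 0.192 and 0.38 FPKM at 144 h. Wild-type replicate 3 was therefore the highest for Nanog as it was for Nodal and Tdgf1. The 3 Del(sub-TAD1) libraries at 96 h had Nanog at 2.80, 23.0 and 27.5 FPKM, with replicate 1 low as for Nodal, and the inverse in Mesp2, at 40.8, 9.71 and 5.05 FPKM, as for Cer1. Wild-type replicate 3 likewise had the lowest Mesp2 at 96 h, at 13.7 FPKM against 25.2 to 34.8 FPKM. In the 72 h stembryos, where Nodal and Tdgf1 were highest, Nanog was at 65.8 and 82.5 FPKM.

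Primordial germ cell markers (Prdm1, Dppa3, Nanos3, Prdm14 and Dnd1) also had higher sums in Del(CBS1-5), at 30.1 to 31.6, 22.3 to 29.1 and 42.3 to 48.3 FPKM at the 3 stages against 0.373 to 10.5, 0.919 to 11.3 and 3.24 to 3.43 FPKM in wt. Dppa3 was the largest part in wt at 96 h, at a mean of 2.44 FPKM against 0.708 FPKM for Nanos3, and Dnd1 was at 0 FPKM. These sums alone do not show germ cells. Visceral endoderm markers (Ttr, Afp, Amn, Apoa1 and Rhox5) summed to 13.8 to 14.0, 19.4 to 29.0 and 45.5 to 54.2 FPKM against 1.52 to 11.4, 1.37 to 12.6 and 0.992 to 1.59 FPKM. Ttr, Afp and Amn did not pass the expression filter, so this sum does not show visceral endoderm. In wt at 96 h it was mostly Rhox5, at a mean of 6.13 FPKM, with Apoa1 at 0.0349 FPKM. The best-matching age of the Del(CBS1-5) libraries was 90 to 91 h at 96 h, 115 to 125 h at 120 h and 137 to 138 h at 144 h, below or within that of the wt libraries of the stage, and that of the Del(sub-TAD1) libraries at 96 h was 91 to 92 h. The best-matching age of Del(CBS1), Del(CBS1-2) and Del(d1-d4) at 120 h was 125 to 126 h, as in wt. The part of age in these results was not tested.

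**Figure D5:**
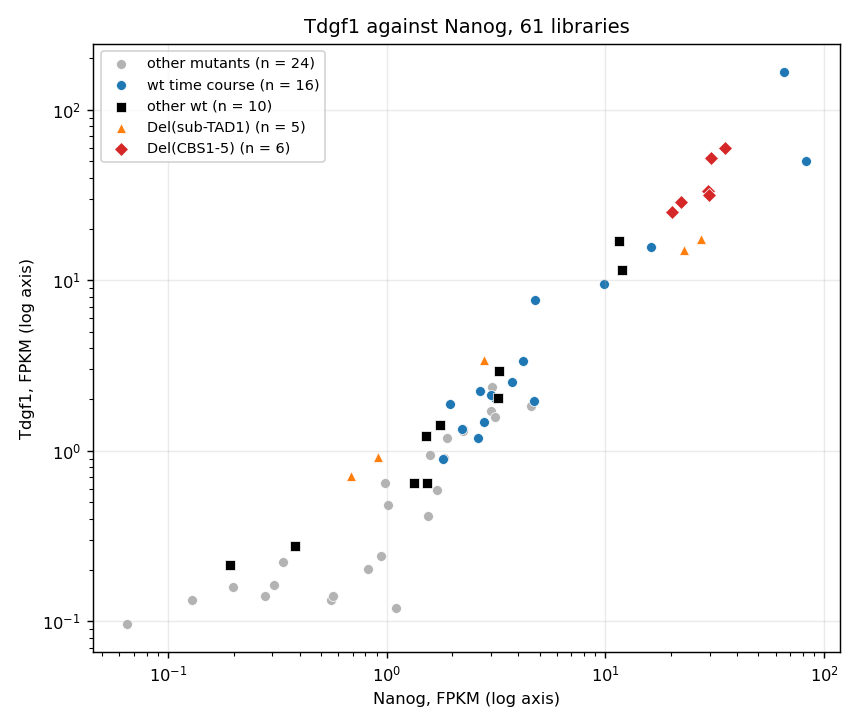
FPKM of Tdgf1 against FPKM of Nanog in each of the 61 libraries, both axes logarithmic, with symbols for the wt time course, the other wt libraries, Del(CBS1-5), Del(sub-TAD1) and the other mutants. The 6 Del(CBS1-5) libraries lie at 20.1 to 35.4 FPKM of Nanog and 25 to 59.7 FPKM of Tdgf1, near the 72 h stembryos and above the 10 other wt libraries.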

How the data were processed

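RNA was measured in 61 stembryo libraries of 28 conditions. Per the labels and the study's methods, the authors made stranded poly-A libraries with 75-base paired reads, trimmed them with cutadapt 1.16, aligned them to mm10 with STAR 2.7.7a, kept uniquely mapped reads and computed FPKM with Cufflinks 2.2.1 and an annotation based on Ensembl. The deposited FPKM table lists 55052 genes and was used as it stands. Fragments per gene were worked back from the deposited confidence bounds in FPKM, giving depths of 14.7 to 38.2 M fragments and a limit of detection of 3 fragments. Keeping uniquely mapped reads removes those shared by near-identical genes, which bears on Gdf1, Lefty1, Lefty2 and Tdgf1. FPKM are relative, so a few abundant RNAs lower the values of all others in a library.

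With limma 3.58.1 in R 4.3.3, log2(FPKM + 0.1) of all 61 libraries was fitted with 1 coefficient per condition, and each comparison was corrected by the Benjamini-Hochberg procedure over 17098 genes with a mean of at least 1 FPKM in a condition, for 38 comparisons, with 0.05 as the threshold on adjusted p. Fold values are ratios of mean FPKM, while log2 changes include the constant and understate the change of low genes. Python 3.11.15 was used for the other steps. Between wt libraries of 96 h and 120 h with the same replicate number, deviations from the group means correlated in 4 of 4 pairs (0.777 to 0.940). No label states a pairing. Replicate 4 was of the other set at both stages, so these correlations cannot show that the numbers pair cultures. In 40 pairs of replicates the mean chi-square per gene was 1.56 or more, so none was taken as 1 library counted again.

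The 2 sets of libraries were read from mt-Co3, and they also differed in summed FPKM of ribosomal pseudogenes (23506 to 28014 against 705 to 2985). What set them apart was not tested. The genes and lists were chosen with earlier results of these data known. All 8 genes were named, with log2 changes for those past the threshold or with every mutant library on one side of wt, and up to 3 genes of each role from the pathway list and 3 genes most alike per member. Alternatives were the constant, the filter, the scaling, other limma settings, the groups fitted, a replicate block, leaving out each replicate and other controls. Of these, 2 were chosen after seeing the data, leaving out Del(sub-TAD1) replicate 1 at 96 h and leaving out wt replicate 3 from controls of the same set. A gene of the pathway list is counted with it but not reported by itself here.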

Additional observations from a re-analysis of the deposited data

Results flagged for a closer look

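On FPKM without logarithms, a single library stood far from the other 3 in 8 of the 14 tests of the 7 genes in the wt groups of 4. It was wt replicate 3 each time. The tests share libraries and genes that move together, so the 8 are not independent and cannot be set against chance. The rule was not run on log2 values. At 96 h it was highest for Tdgf1 at 11.6 FPKM, Lefty1 at 60.2 FPKM and Lefty2 at 21.5 FPKM. At 120 h it was highest for Nodal at 5.02 FPKM, Tdgf1 at 16.9 FPKM, Lefty1 at 23.9 FPKM, Lefty2 at 8.81 FPKM and Gdf3 at 2.50 FPKM. Nanog was at 11.9 and 11.5 FPKM in these libraries, and its part was not tested.

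Effects of a mutation differed between stages, by a test of the difference itself, in 14 cases. In Del(CBS1-5), Foxh1 differed by 2.00 (limma adjusted p = 0.0215) between 120 h and 96 h and by 4.82 (limma adjusted p = 9.21e-10) between 144 h and 96 h on the log2 scale. Over the latter stages Cer1, lower than wt at 96 h, differed by 4.59 (limma adjusted p = 0.0327), 2 of 7 genes where 10.3% of all tested genes were called. Between 144 h and 120 h the differences were 2.82 for Foxh1, 3.06 for Nodal, 3.45 for Gdf3, 4.26 for Tdgf1 and 4.20 for Lefty2.

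In Del(CBS4), Nodal (3.25, limma adjusted p = 0.0256) and Tdgf1 (4.49, limma adjusted p = 0.0189) differed between 144 h and 120 h, 2 of 7 against 8.27% of all tested genes. In Del(sub-TAD1) the effects at 120 h lay below those at 96 h, by -2.43 for Nodal, -3.40 for Gdf3, -4.14 for Tdgf1 and -4.19 for Lefty2. Del(sub-TAD1) libraries of 96 h and 120 h belong to different library sets, as do Del(CBS1-5) libraries of 144 h and of the earlier stages, so that set and stage cannot be told apart in those mutants. With controls of the same set, only Foxh1 in Del(CBS1-5) at 144 h (3.97 against 96 h and 2.11 against 120 h) and Gdf3 in Del(sub-TAD1) (-3.55) were still called, and the differences in Del(CBS4) were not (1.96 for Nodal and 2.65 for Tdgf1).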

How the results depend on the processing

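Calls summed over the 7 genes were 1 higher and 4 lower in the 7 time-course steps, 0 higher and 1 lower between wt 120 h and 96 h, 22 higher and 18 lower in the 17 mutant comparisons, 10 higher and 4 lower between stages of a mutant and 7 higher and 0 lower between sources of wt. Of 67 called results, 10 stayed past the threshold under every alternative run, 57 lost it under at least 1 and 0 reversed. Fitting only the compared groups, which leaves few libraries to estimate the spread, gave 0 higher and 0 lower in the time course, 7 and 0 in the mutants and 1 and 0 between stages. A constant of 1 FPKM gave 2 lower in wt, 4 lower in the mutants, 6 higher between stages and 4 higher between sources. Controls of the same library set gave 4 lower in the mutants and 2 higher and 1 lower between stages, and without wt replicate 3 as well 5 lower and 2 and 1. With all wt libraries of the stage as controls, 2 were higher between stages. Leaving out 1 replicate at a time gave 2 to 2 lower in the time course, 1 to 3 lower in wt, 6 to 28 higher and 0 to 31 lower in the mutants, 1 to 13 higher and 0 to 5 lower between stages and 3 to 11 higher between sources. Where a mutant was left with 1 library, it was assumed to vary like the other groups.

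With the replicate number as a block, 11 were lower in the time course, 4 lower in wt and 12 higher between sources, and no other count moved by over 1.5 times. Elsewhere the deviations of libraries with the same number seldom correlated, with 6 of 56 correlations above 0.1 in the time course and 1 of 35 between mutants and wt. Depth limits Tdgf1, Gdf3, Lefty1 and Lefty2 in libraries at or under 3 fragments.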
